A study of Homo sapiens with 21 samples.

Results

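The loci of KLF4 and KLF6, the 2 Kruppel-like factor genes among the 53 loci captured, were described from every deposited table of either gene, 14 of 371 in all. Each locus had 7 pooled libraries of Tri-C, a chromosome conformation capture method that lists which pairs of DNA fragments were ligated into one read together with a chosen fragment, the viewpoint. Of these, 4 were read from an enhancer of the gene and 3 from a CTCF-binding site (CBS) in the region, a boundary site in the study's terms. The cells were BLaER, a human B cell leukaemia line that is driven into macrophage-like cells (iMacs) by an inducible C/EBPα. The enhancer was captured at 0, 24 and 96 h of transdifferentiation and in another library, here 96 h-depl, from the CTCF-AID subclone, whose CTCF carries an auxin-inducible degron, after 96 h with auxin. The CBS was captured at 0, 24 and 96 h. Each library pooled 3 biological replicates. Because the 96 h library came from BLaER cells for which no degron is labelled, the loss of CTCF, auxin and the subclone cannot be told apart in the comparison of 96 h-depl with 96 h. No RNA was measured in these tables, so the cell state was not checked against marker genes.

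Kruppel-like factors are zinc-finger transcription factors that bind GC-rich and CACCC elements in promoters and enhancers. KLF4 is known for promoting monocyte differentiation and, outside blood, for its part in reprogramming cells to pluripotency. KLF6 is a widely expressed family member known for promoting inflammatory gene expression in macrophages. Genes of this kind can be contacted by enhancers over long distances, and CTCF bound at CBSs halts loop extrusion by cohesin, which brings sites into proximity and limits contacts across the bound site.

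Both genes lay far from the enhancer that was captured (coordinates are hg38). The KLF4 enhancer fragment, chr9:107750190-107750418, was intergenic and 261 kb from the KLF4 start at position 107489769 on the minus strand, rank 8 from the longest among 51 loci whose median distance was 66.7 kb. The KLF6 enhancer fragment, chr10:4131554-4131708, was also intergenic and lay 346 kb from the KLF6 start at position 3785209, again on the minus strand and rank 6 of 51. The arrangement of the CBS differed. At KLF4 the CBS fragment, chr9:107481117-107481262, was intergenic and lay just past the gene as seen from the enhancer, 8.58 kb from the promoter and 269 kb from the enhancer. At KLF6 the CBS fragment, chr10:4656959-4657202, lay on the opposite side of the enhancer from the gene, 525 kb from the enhancer and 872 kb from the promoter, within an exon of the long non-coding RNA gene MANCR and within LINC00705.

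The sequences of the 4 viewpoint fragments are given because every count was made relative to them, with the NlaIII sites (CATG) that bound each fragment in capitals. They are plus-strand hg38 sequence at chr9:107750186-107750422 and chr9:107481113-107481266 for KLF4, and at chr10:4131550-4131712 and chr10:4656955-4657206 for KLF6.
KLF4 enhancer: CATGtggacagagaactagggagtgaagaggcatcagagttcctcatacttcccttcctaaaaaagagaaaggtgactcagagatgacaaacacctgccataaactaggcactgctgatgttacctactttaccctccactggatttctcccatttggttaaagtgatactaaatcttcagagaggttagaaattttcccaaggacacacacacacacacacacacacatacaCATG
KLF4 CBS: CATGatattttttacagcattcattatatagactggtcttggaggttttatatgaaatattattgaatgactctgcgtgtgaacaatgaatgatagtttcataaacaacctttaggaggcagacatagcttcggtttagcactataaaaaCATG
KLF6 enhancer: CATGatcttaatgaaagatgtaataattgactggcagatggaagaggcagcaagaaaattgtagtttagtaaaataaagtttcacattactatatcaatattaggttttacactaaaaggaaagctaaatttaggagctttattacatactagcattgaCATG
KLF6 CBS: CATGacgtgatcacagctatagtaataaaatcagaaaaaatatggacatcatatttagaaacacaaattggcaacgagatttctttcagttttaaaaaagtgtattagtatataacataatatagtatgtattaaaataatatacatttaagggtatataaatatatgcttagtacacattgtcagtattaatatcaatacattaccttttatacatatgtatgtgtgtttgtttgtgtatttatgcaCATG
The fragments were AT-rich, with a GC content of 43.0% for the KLF4 enhancer, 32.5% for the KLF4 CBS, 29.4% for the KLF6 enhancer and 24.6% for the KLF6 CBS.

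The promoters, at the centre of the windows counted below, were GC-rich. The 250 bases before each RefSeq start (GRCh38.p14, minus strand, chr9:107489770-107490019 and chr10:3785210-3785459) are given with GC boxes, GGGCGG on either strand, in capitals.
KLF4 promoter: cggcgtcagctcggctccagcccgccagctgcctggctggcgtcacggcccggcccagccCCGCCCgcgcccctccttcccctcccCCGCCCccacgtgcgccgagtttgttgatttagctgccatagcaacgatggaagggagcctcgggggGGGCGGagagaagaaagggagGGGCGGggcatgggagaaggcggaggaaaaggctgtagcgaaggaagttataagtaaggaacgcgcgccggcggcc
KLF6 promoter: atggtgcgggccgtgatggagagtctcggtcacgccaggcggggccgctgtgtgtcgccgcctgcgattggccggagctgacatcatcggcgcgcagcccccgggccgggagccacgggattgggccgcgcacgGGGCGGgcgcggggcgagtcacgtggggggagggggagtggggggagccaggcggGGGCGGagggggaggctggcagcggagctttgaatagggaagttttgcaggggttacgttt
The KLF4 promoter held 4 GC boxes and had a GC content of 69.2%, and the KLF6 promoter held 2 and had 72.4%. A GC box was found in 42.6% of 35116 RefSeq promoters of this length.

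Letters of the sites bound by myeloid transcription factors were searched on both strands within 1 kb of the viewpoints. Near the KLF4 enhancer, AP-1 letters (TGANTCA) occurred inside the fragment, in the stretch printed as tgactca above, and again 546 bp away. PU.1 letters (GAGGAAGT) occurred 319 bp away on the lower-coordinate side and C/EBP letters (TTGCNNAA) 985 bp away. Near the KLF6 enhancer, C/EBP letters occurred 162 bp away on the lower-coordinate side and 320 bp away on the other, and AP-1 letters 83 bp away. At least 1 match was present near 76.5% of the 51 enhancer viewpoints for C/EBP, 58.8% for AP-1 and 17.6% for PU.1. Near the KLF4 CBS, AP-1 letters occurred at -568 bp, a minus sign marking lower coordinates than the viewpoint's, and near the KLF6 CBS, C/EBP letters occurred at -889, -216 and 310 bp. Among the 51 CBS viewpoints, 72.5% had a C/EBP match and 51.0% an AP-1 match. A core of the CTCF motif was not in the window of either CBS and was in that of 12 of the 51 CBS viewpoints (23.5%). These matches are descriptions of sequence only.

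A count in these tables is a pair of reporter fragments seen with the viewpoint, and the total of a library was its counts with both reporters within 1 Mb. From the enhancer, totals at 0, 24 and 96 h and in 96 h-depl were 46312, 59874, 55097 and 66309 for KLF4, and 45610, 49314, 67221 and 78699 for KLF6. From the CBS, totals at 0, 24 and 96 h were 44293, 54216 and 48869 for KLF4, against only 14244, 15348 and 17864 for KLF6, so values from the KLF6 CBS are the least precise. The 96 h-depl libraries stood apart in composition. They held 3.27 counts per distinct fragment pair against 2.19 at 96 h for KLF4, and 2.54 against 1.78 for KLF6, and pairs of neighbouring fragments made up 56.4% against 41.7% of counts for KLF4 and 42.1% against 27.2% for KLF6. Over all 51 loci tested, no 96 h-depl library had fewer counts per pair than 2.44 and no 96 h library from the enhancer more than 2.37. Window counts that compare 96 h-depl with 96 h are therefore also given with other totals where this moved them. Tiles and sums over listed elements were not tested with distant counts as the total. The part of this composition in the remaining differences was not tested.

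Three-way interactions of the enhancer with the promoter increased at both genes during transdifferentiation, but on different schedules. E-P-X counts, with the enhancer as viewpoint, 1 reporter in the 12 kb window at the promoter and the other anywhere more than 10 kb from both, rose before 24 h at KLF6 and mostly between 24 h and 96 h at KLF4. At KLF4, 96, 176 and 399 counts were found at 0, 24 and 96 h, or 0.207%, 0.294% and 0.724% of the total. At KLF6 the counts were 412, 921 and 1268, or 0.903%, 1.87% and 1.89%. The share from the KLF6 enhancer was above that from the KLF4 enhancer at each time, although its promoter was farther away.

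Differences were tested between 2 pooled libraries with an exact conditional binomial test (two-sided, Benjamini-Hochberg over loci), and sizes are log2 odds ratios of a window's counts to the rest of the total. At KLF4 the 24 h over 0 h change was 0.50 (95% interval 0.14 to 0.88, adjusted p = 0.00807, exact test), and 54.9% of loci were called higher in this comparison. The 96 h over 24 h change was 1.30 (1.05 to 1.57, adjusted p = 1.27e-24, exact test), rank 1 of 51 loci, with 60.8% of loci called higher. At KLF6 the order was turned round. The 24 h over 0 h change was 1.06 (0.89 to 1.23, adjusted p = 3.9e-37, exact test), rank 3 of 51, and the 96 h over 24 h change was 0.01 (-0.11 to 0.14, adjusted p = 0.863, exact test).

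Over the whole course the 96 h over 0 h change was 1.81 at KLF4 (1.49 to 2.15, adjusted p = 2.54e-34, exact test), a 3.50-fold difference in odds and rank 5 of 51. At KLF6 it was 1.08 (0.92 to 1.24, adjusted p = 1.86e-43, exact test), 2.11-fold and rank 16. In this comparison 68.6% of loci were called higher, the median over all loci was 0.59 and that over the 36 loci of the iMac class was 1.00, so KLF6 was close to its class and KLF4 above its median. The change at KLF4 minus that at KLF6 was -0.56 for 24 h over 0 h (-0.96 to -0.16), 1.29 for 96 h over 24 h (1.01 to 1.57) and 0.73 for 96 h over 0 h (0.37 to 1.09). With 1 pooled library per time there was no replicate check, so these tests compare libraries and not conditions, and intervals cover counting error only, with counts from the same read not independent. The KLF4 call at 24 h was lost with 30 kb windows (0.12, adjusted p = 0.27, exact test) and with all counts divided by 3 (0.48, adjusted p = 0.18, exact test).

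**Figure D1:**
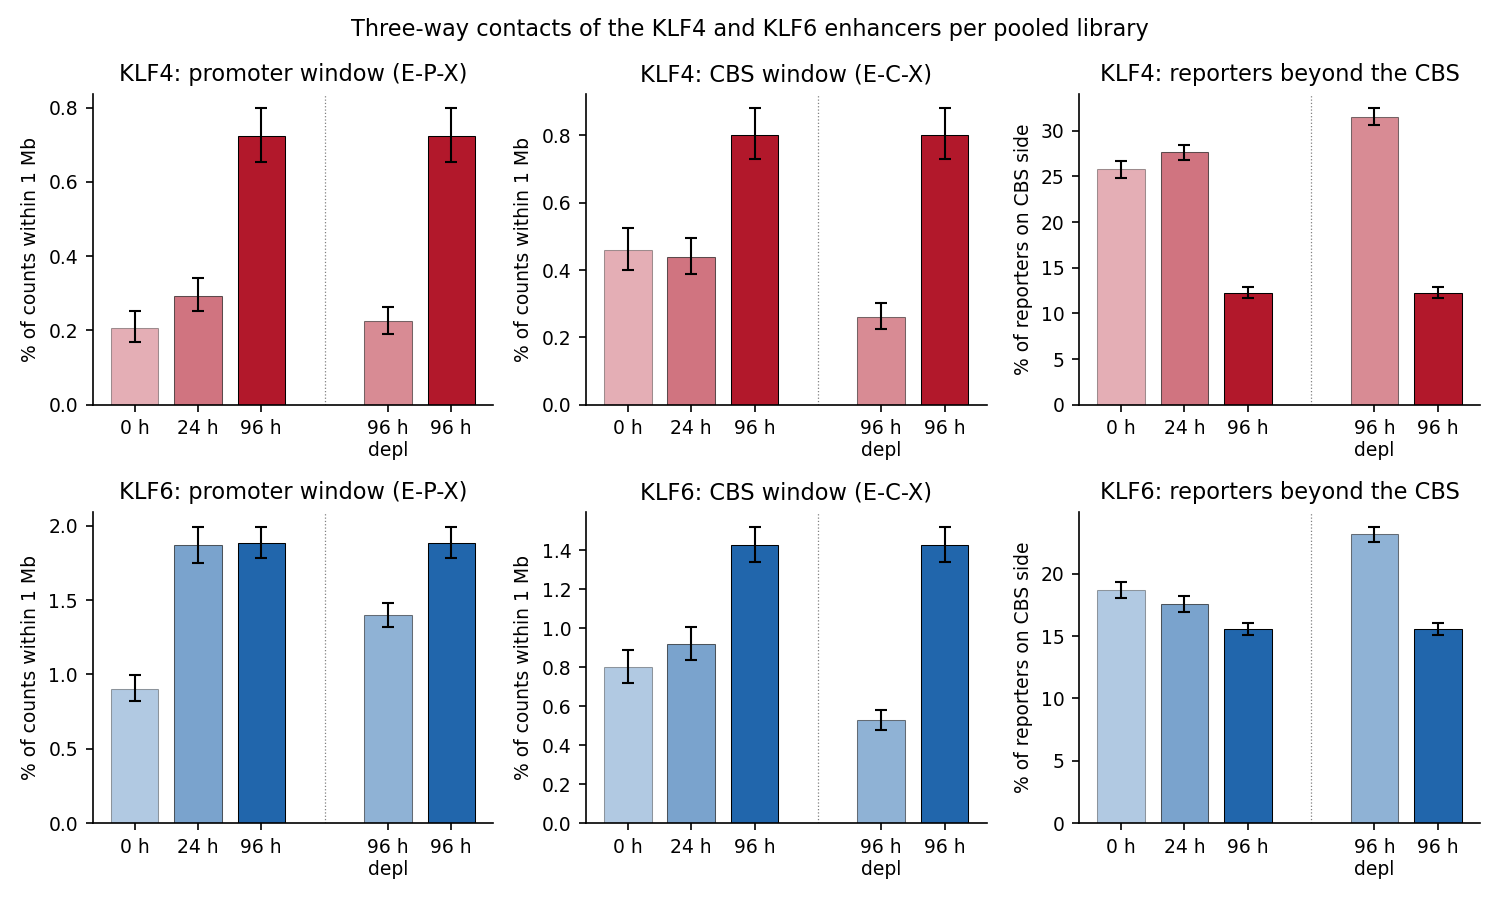
Share of three-way counts (percent, linear axes from 0) from the KLF4 enhancer (top) and KLF6 enhancer (bottom) in each library, for the promoter window (E-P-X), the CBS window (E-C-X) and reporters beyond the CBS. Bars are 1 pooled library each, with 95% exact intervals, and the 96 h bar is drawn again beside 96 h-depl; the KLF4 promoter window reached 0.724% at 96 h, whereas the KLF6 window was at 1.87% by 24 h.

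The promoter window rose relative to its surroundings at both genes, by more at KLF4, where its share started lower. Of counts in the promoter window and its flanks out to 30 kb from the promoter, the window held 12.4%, 16.7% and 26.7% at 0, 24 and 96 h at KLF4. At KLF6 it held 29.6%, 32.9% and 33.6%. The 96 h over 0 h change in this share was 1.36 on the log2 scale at KLF4 (1.04 to 1.70, adjusted p = 4.91e-19, exact test), rank 1 of 51 loci, and 0.27 at KLF6 (0.10 to 0.43, adjusted p = 0.00133, exact test), with 56.9% of loci called higher. At 24 h over 0 h it was 0.50 at KLF4 (0.14 to 0.88, adjusted p = 0.00998, exact test) and 0.22 at KLF6 (0.05 to 0.39, adjusted p = 0.0171, exact test), with 41.2% called higher. The KLF4 change minus the KLF6 change in this share was 1.09 (0.69 to 1.49) for 96 h over 0 h.

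**Figure D2:**
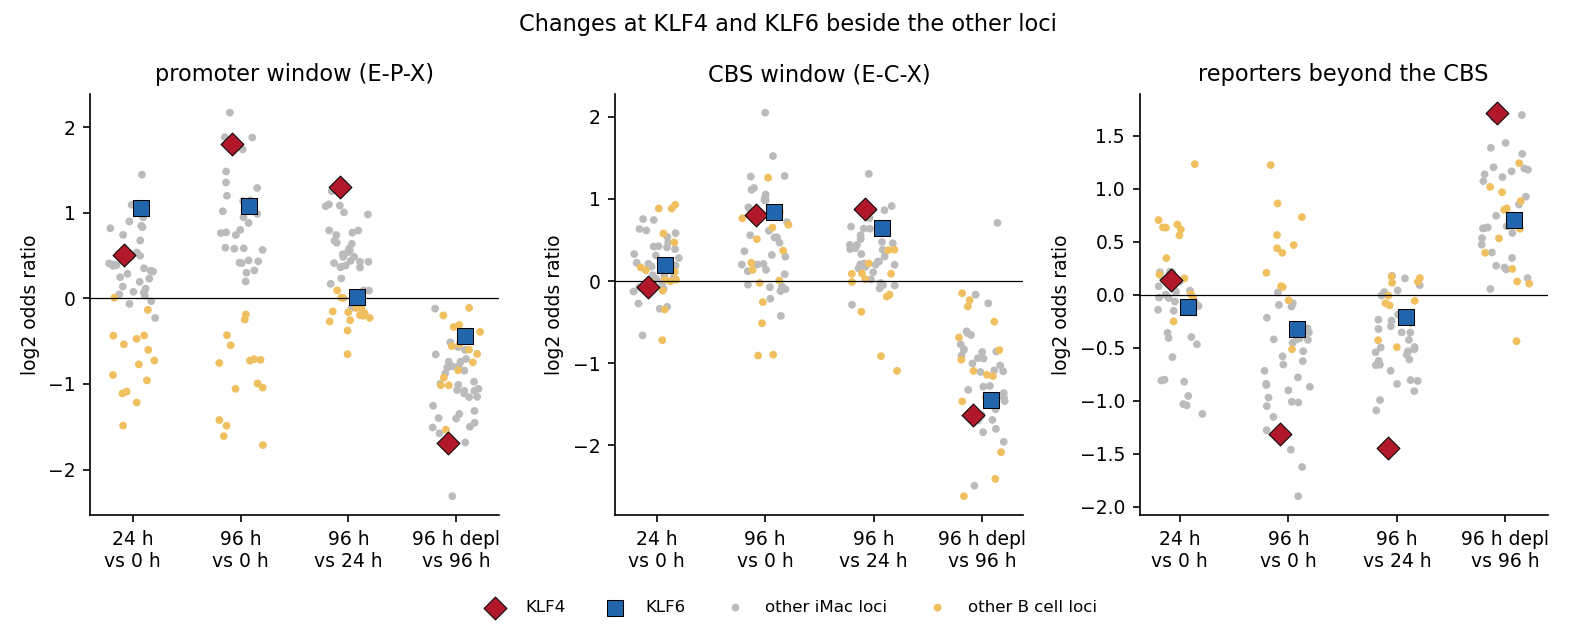
Log2 odds ratios (linear axis) of KLF4 (red diamonds) and KLF6 (blue squares) beside the other loci of the iMac class (grey) and the B cell class (orange) in each of the 4 comparisons, 1 point per locus, for the promoter window, the CBS window and reporters beyond the CBS. KLF4 had the highest 96 h over 24 h value in the promoter window (1.30), and the highest value beyond the CBS in 96 h-depl over 96 h (1.72).

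The position of the other reporter also differed between times. In E-P-X counts at KLF4, the other reporter lay between enhancer and promoter in 45.8%, 37.5% and 48.9% of cases at 0, 24 and 96 h, and past the promoter in 11.5%, 11.4% and 3.51%. At KLF6 it lay between them in 30.02%, 36.5% and 45.3% and past the promoter in 40.4%, 31.2% and 23.3%. At both genes the share past the promoter was lowest at 96 h, and at KLF6 the intervals for 96 h (21.0% to 25.8%) and 0 h (35.7% to 45.3%) did not overlap. For KLF4 the past-promoter share at 96 h rested on 14 counts.

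Hubs of the enhancer, a further enhancer and the promoter (E-E-P) were counted at the same times. The further enhancers were positions that the study listed from promoter contacts in the same cell line, 20 for KLF4 and 27 for KLF6 within range, so their contacts with the promoter are not independent of these loci having been chosen. E-E-P counts at 0, 24 and 96 h were 11, 14 and 54 at KLF4, and 41, 142 and 174 at KLF6. At KLF4 the change was -0.04 for 24 h over 0 h (-1.27 to 1.26, adjusted p = 1, exact test) and 2.03 for 96 h over 24 h (1.20 to 3.03, adjusted p = 6.71e-07, exact test). The 24 h over 0 h value at KLF4, from few counts, turned positive under 5 of 11 alternatives, up to 1.47 with 7.5 kb windows. None of these was called, some having too few counts for the test. At KLF6 the change was 1.67 for 24 h over 0 h (1.17 to 2.22, adjusted p = 5.89e-12, exact test) and -0.16 for 96 h over 24 h (-0.48 to 0.18, adjusted p = 0.514, exact test). Loci called higher made up 46.5% in the first comparison and 52.3% in the second. For 96 h over 0 h, with 73.9% of loci called higher, the changes were 2.00 at KLF4 (1.09 to 3.13, adjusted p = 2.14e-06, exact test) and 1.51 at KLF6 (1.03 to 2.06, adjusted p = 9.21e-11, exact test).

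Counts were also summed over the listed elements, whether or not the promoter was contacted. At KLF4, listed enhancers held 3.82%, 3.78% and 6.17% of counts at 0, 24 and 96 h, and listed CTCF sites 0.866%, 0.917% and 2.00%. At KLF6, listed enhancers held 4.77%, 6.29% and 7.78%, and listed CTCF sites 1.98%, 2.82% and 3.63%. The 24 h over 0 h change at listed enhancers was -0.02 at KLF4 (-0.11 to 0.08, adjusted p = 0.739, exact test) and 0.42 at KLF6 (0.34 to 0.50, adjusted p = 3.11e-25, exact test), with 43.1% of loci called higher. For 96 h over 0 h the changes at listed CTCF sites were 1.22 at KLF4 (1.06 to 1.39, adjusted p = 2.81e-52, exact test), rank 3 of 51, and 0.90 at KLF6 (0.79 to 1.01, adjusted p = 1.68e-61, exact test), with 70.6% called higher.

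Contacts of the enhancer with the CBS (E-C-X) rose at both genes, and at both after 24 h. At KLF4, 213, 263 and 442 counts (0.460%, 0.439% and 0.802%) fell in the CBS window at 0, 24 and 96 h, and at KLF6 365, 453 and 959 (0.800%, 0.919% and 1.43%). The 24 h over 0 h values, -0.07 at KLF4 (-0.33 to 0.20, adjusted p = 0.781, exact test) and 0.20 at KLF6 (0.00 to 0.40, adjusted p = 0.0823, exact test), did not pass the threshold, where 45.1% of loci were called higher. KLF6 was called at 24 h under 3 alternatives: 30 kb windows (0.23), 5 kb exclusion (0.24) and each pair counted once (0.28). The 96 h over 0 h changes were 0.81 at KLF4 (0.57 to 1.05, adjusted p = 1.56e-11, exact test) and 0.84 at KLF6 (0.67 to 1.02, adjusted p = 2.22e-22, exact test), ranks 16 and 14 of 51, with 60.8% called higher and a median of 0.47.

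At KLF6, promoter and CBS contacts of the same enhancer were called in different intervals, a difference between the windows that was not itself tested. The promoter window had 921 of 49314 counts at 24 h, close to its share at 96 h, while the CBS window gained 0.64 between 24 h and 96 h (0.48 to 0.81, adjusted p = 9.99e-15, exact test), where 58.8% of loci were called higher. Counts that joined the enhancer, promoter and CBS of KLF6 (E-P-C) numbered 5, 13 and 23 at 0, 24 and 96 h. Relative to the product of the 2 windows over distant counts, these were 0.569, 0.597 and 0.557, values close to each other but resting on few counts. In 96 h-depl the value was 0.813, from 16 counts. Either reporter of a count can fill either window, so values of this size do not mean a shortage of joint counts. The 96 h over 0 h change of E-P-C was 1.54 (0.22 to 3.39, adjusted p = 0.0277, exact test), with 55.2% of the 29 loci measured called higher, and it did not pass with 7.5 kb windows (0.09), distant counts as the total (1.31) or counts divided by 3 (1.76).

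At KLF4 the promoter and CBS windows overlap, so E-P-C was not defined, and part of E-P-X is also E-C-X. Counts in both windows were 34, 62 and 116 at 0, 24 and 96 h, or 35.4%, 35.2% and 29.1% of E-P-X. Counts in the promoter window but not the CBS window were 62, 114 and 283.

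At both genes the enhancer library of 96 h also had a lower share of reporters beyond the CBS than that of 0 h, with the larger difference at KLF4. Of distant reporters on the CBS side of the enhancer, 25.8%, 27.6% and 12.3% lay beyond the CBS at 0, 24 and 96 h. At KLF6 these were 18.7%, 17.6% and 15.6%. Both reporters of a count entered this share separately where both lay on that side. Reporters of the same count are not independent, so intervals and p-values for this share can be too narrow. The KLF4 change for 96 h over 24 h was -1.45 (-1.54 to -1.36, adjusted p = 4.64e-244, exact test), the lowest of the 46 loci measured, where 73.9% were called lower. For 96 h over 0 h it was -1.31 at KLF4 (-1.41 to -1.22, adjusted p = 7.74e-167, exact test) and -0.32 at KLF6 (-0.39 to -0.25, adjusted p = 1.36e-18, exact test), with 71.7% called lower and a median of -0.42. The 24 h over 0 h values were small at both, 0.14 at KLF4 (0.06 to 0.22, adjusted p = 0.000833, exact test) and -0.11 at KLF6 (-0.19 to -0.03, adjusted p = 0.00536, exact test), where 82.6% of loci were called in either direction. Both of these calls were lost with counts divided by 3.

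Contacts in 10 kb tiles showed where this happened. From the KLF4 enhancer, 43 tiles were called higher and 43 lower of 181 tested for 96 h over 0 h, and over all loci 19.2% of tiles were called higher and 27% lower. Between the enhancer and the CBS, 16 of 26 tiles were higher and 0 were lower. Beyond the CBS the picture was opposite, with 1 higher and 31 lower of 56. With counts divided by 3, only 2 KLF4 tiles remained called lower in total, since each of these tiles is shallow.

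At KLF6 the turn in sign lay farther out than the CBS. From its enhancer, 53 tiles were higher and 51 lower of 197 for 96 h over 0 h. Before the CBS, 16 of 52 tiles were higher and 4 lower, and in the first 150 kb beyond it 3 of 15 were higher and 0 lower. More than 150 kb beyond the CBS, 0 of 31 tiles were higher and 21 were lower, with a median of -1.33. The 150 kb limit was chosen after the tile values were seen, and is given as a description. On the gene's side of the KLF6 enhancer, 34 of 99 tiles were higher and 26 lower.

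**Figure D3:**
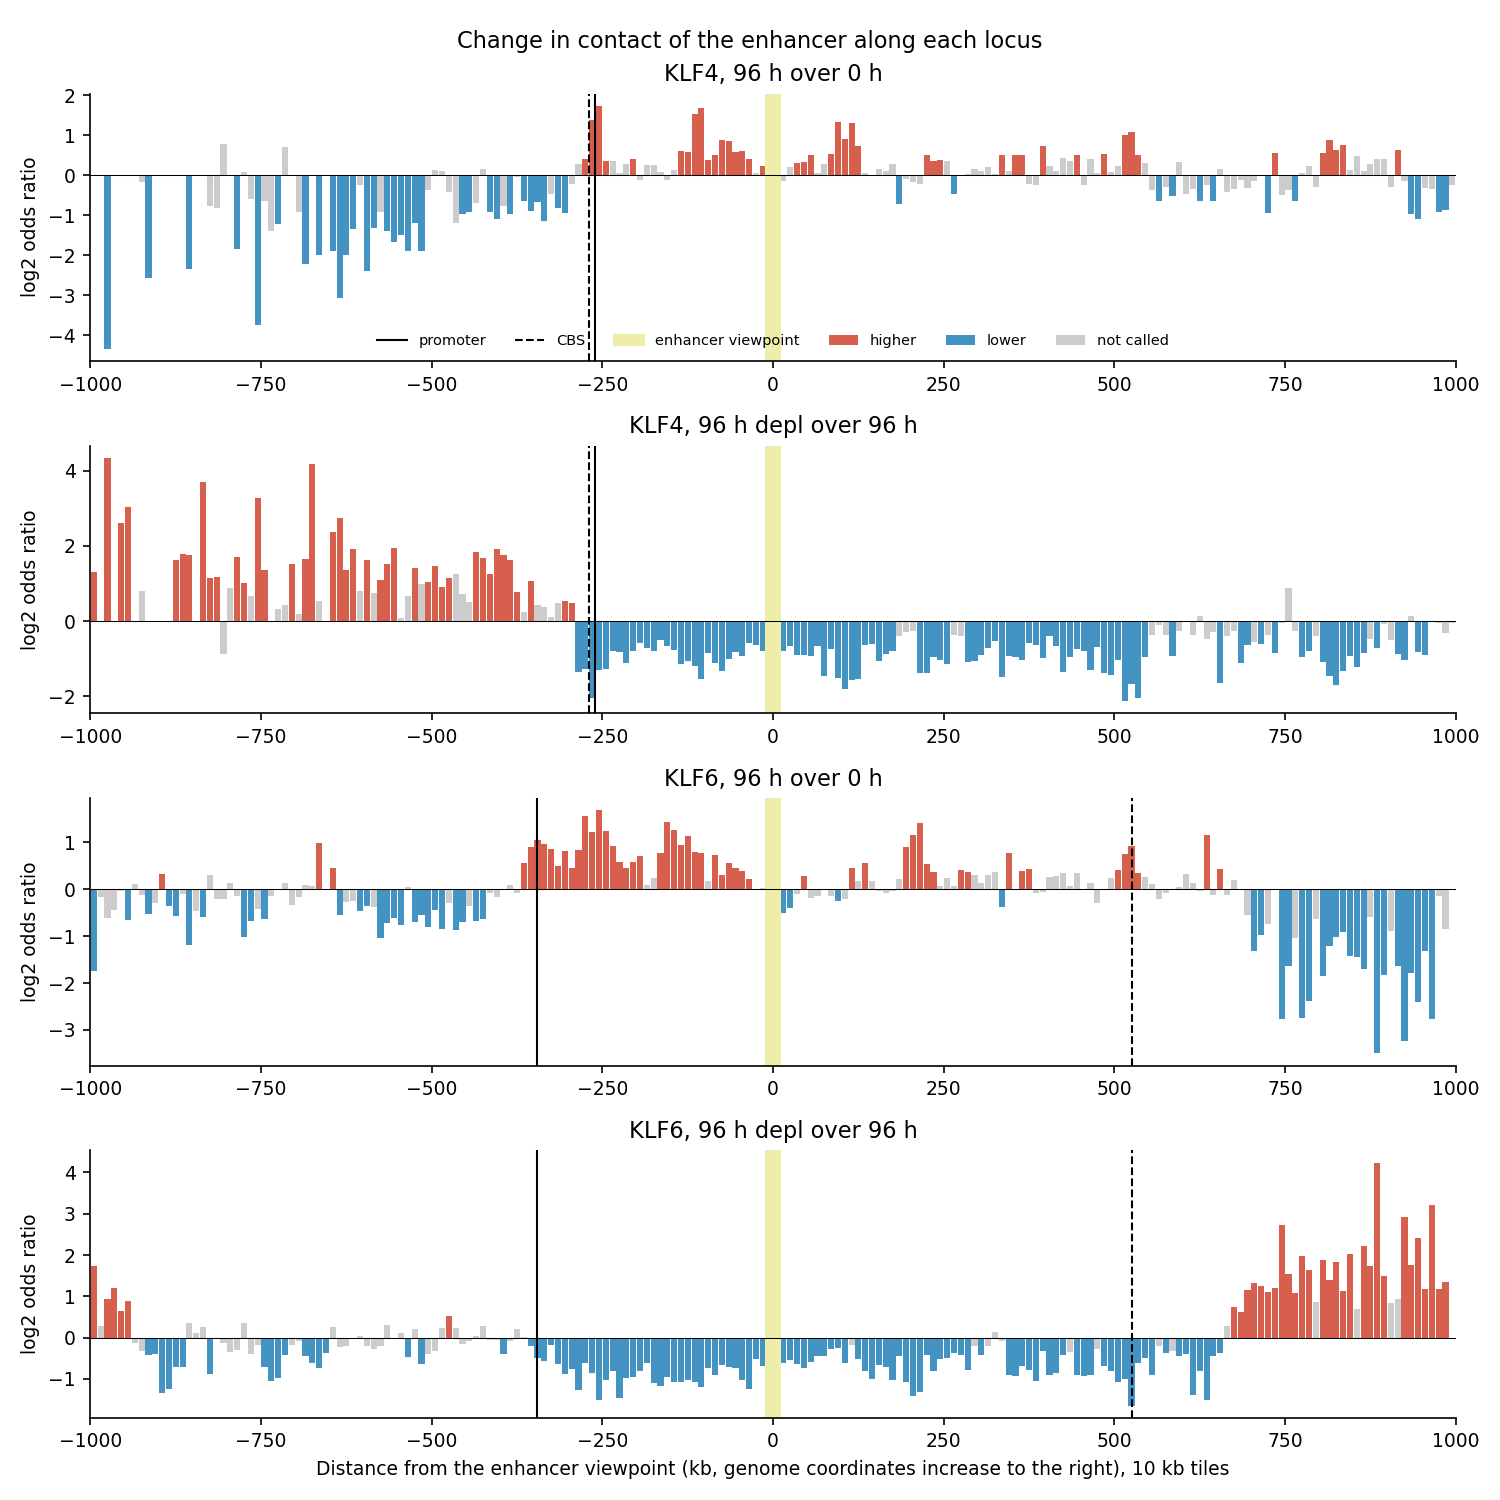
Log2 odds ratio of each 10 kb tile (vertical, linear) by distance from the enhancer viewpoint (kb) at KLF4 and KLF6, for 96 h over 0 h and 96 h-depl over 96 h, with the solid line at the promoter and the dashed line at the CBS. Coloured bars passed the exact test; 31 of 56 tiles beyond the KLF4 CBS fell at 96 h over 0 h and 40 of 63 rose in 96 h-depl over 96 h.

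Among tiles with at least 50 counts over both libraries, to which the named tiles were limited, the largest changes lay at a few places. At KLF4 the tile of the promoter's upstream side, 260 kb from the enhancer, had 60, 125 and 240 counts at 0, 24 and 96 h (96 h over 0 h, 1.74). The next tile, which holds the KLF4 start and the CBS, had 117, 157 and 361 (1.38). Another place of rise lay between enhancer and gene, 110 to 120 kb from the enhancer, where a pair of neighbouring tiles that hold 2 listed enhancers and 1 listed CTCF site had 206, 381 and 786 counts (1.69) and 141, 160 and 484 (1.53). The tiles of largest fall lay past the gene, for example the tile 600 kb from the enhancer with 50, 25 and 11 counts (-2.39).

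For 24 h over 0 h, 19 tiles were called higher and 10 lower of 190 at KLF4, and 28 higher and 20 lower of 197 at KLF6, where 15.3% and 15.1% of tiles were called over all loci. At KLF6 the largest rises were 4 neighbouring tiles that cover the gene and its flanks, with changes of 0.83 to 1.15. The tile of the promoter had 353, 749 and 1066 counts at 0, 24 and 96 h. The largest rises for 96 h over 0 h lay elsewhere. The tile 260 kb from the enhancer on the gene's side, which holds 2 listed enhancers, had 190, 312 and 891 counts (1.68), and the tile 210 kb away on the CBS side, which holds a listed CTCF site, had 189, 269 and 736 (1.41). Of the 4 largest falls, 3 lay 800 to 890 kb away on the CBS side, among them a tile at AKR1C2, an aldo-keto reductase gene, with 45, 30 and 20 counts (-1.71).

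The CBS libraries viewed the same contacts from the other end. From the KLF4 CBS, counts with a reporter in the enhancer window (C-E-X) were 235, 446 and 545 at 0, 24 and 96 h, or 0.531%, 0.823% and 1.12%. The change was 0.64 for 24 h over 0 h (0.41 to 0.87, adjusted p = 2.92e-07, exact test), rank 4 of 51 with 27.5% of loci called higher, and 1.08 for 96 h over 0 h (0.86 to 1.31, adjusted p = 1.27e-22, exact test), with 54.9% called higher. The contact was thus already higher at 24 h from the CBS, whereas E-C-X from the enhancer was not called at 24 h. The 2 viewpoints were captured in separate libraries, and the difference between them was not tested.

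From the KLF6 CBS, contacts with both the enhancer and the promoter rose, and were called in different intervals, a difference between the windows that was not itself tested. C-E-X counts were 55, 80 and 170 (0.386%, 0.521% and 0.952%), while counts with the promoter, C-P-X, were 46, 107 and 142 (0.323%, 0.697% and 0.795%), with most of the gain in C-P-X before 24 h. C-P-X changed by 1.11 for 24 h over 0 h (0.60 to 1.65, adjusted p = 3.18e-05, exact test), rank 1 of 46 loci with 43.5% called higher, and by 0.19 for 96 h over 24 h (-0.18 to 0.57, adjusted p = 0.385, exact test), where 56.5% were called higher. C-E-X changed by 0.43 for 24 h over 0 h (-0.08 to 0.96, adjusted p = 0.142, exact test) and by 0.87 for 96 h over 24 h (0.48 to 1.28, adjusted p = 1.08e-05, exact test), with 56.9% of loci called higher in the second. The early gain in the KLF6 promoter window was seen from both viewpoints. From the CBS, this window against its flanks was not called for 24 h over 0 h (0.54, 0.04 to 1.08, adjusted p = 0.0983, exact test). With flanks out to 50 kb it was called (0.71). The largest rise among named tiles from the CBS, 1.32, was 17 kb from the promoter, in a tile with 4 listed enhancers. For 96 h over 0 h both changes were 1.30, with intervals of 0.86 to 1.78 for C-E-X and 0.82 to 1.82 for C-P-X, and 69.6% of loci were called higher for C-P-X. Counts from the CBS with both enhancer and promoter were 1, 6 and 0, too few for a test.

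The direction of contacts from the CBS was also measured, a measure added after the data were seen. At KLF4 the share of reporters on the enhancer's side was 69.9%, 73.2% and 83.4% at 0, 24 and 96 h, and at KLF6 71.1%, 73.2% and 78.9%. Both reporters of each distant count entered this share separately, so its intervals can also be too narrow. The KLF4 change was 1.11 for 96 h over 0 h (1.09 to 1.14), rank 2 of 51, and 0.88 for 96 h over 24 h (0.86 to 0.90), rank 1. Loci called higher made up 76.5% for 96 h over 0 h and 66.7% for 96 h over 24 h. In tiles from the KLF4 CBS, 51 were called higher and 57 lower of 196 for 96 h over 0 h (16.9% and 13.2% over all loci). The 2 largest rises were at 780 to 800 kb on the enhancer's side, where a pair of neighbouring tiles had 165, 365 and 618 counts (1.77) and 258, 506 and 844 (1.58), and its largest falls all lay on the other side, 390 to 480 kb away.

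**Figure D4:**
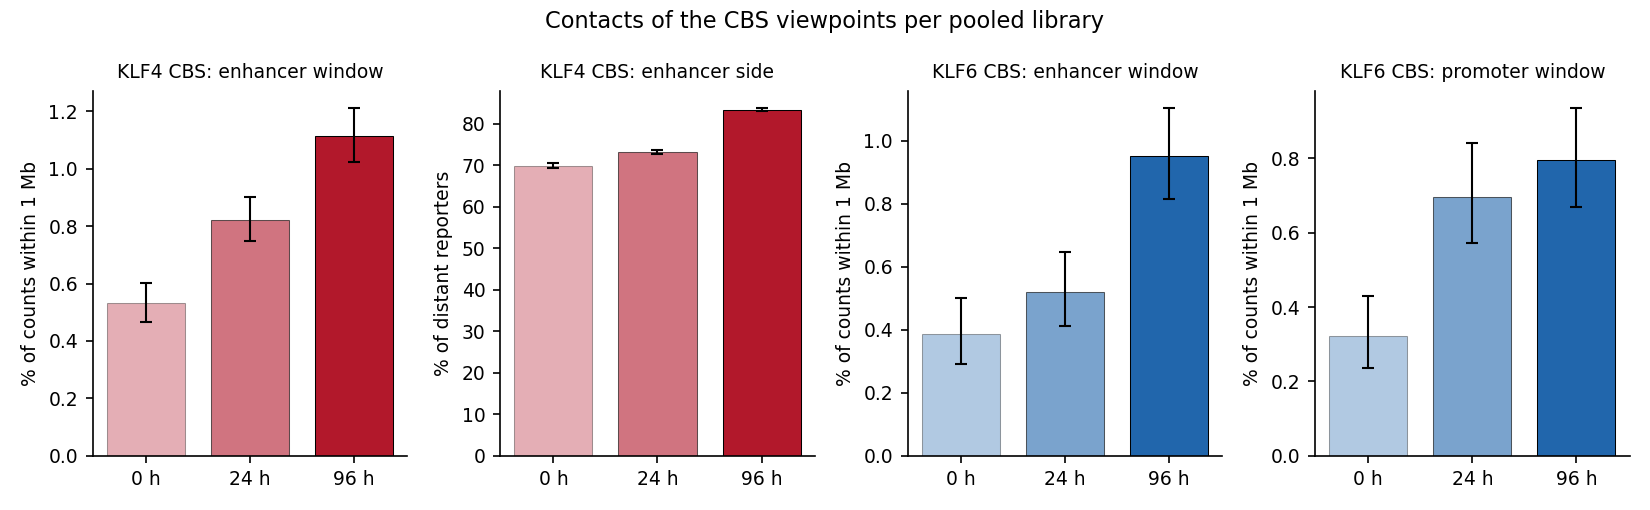
Shares (percent, linear axes) from the CBS viewpoints at 0, 24 and 96 h: KLF4 C-E-X, KLF4 reporters on the enhancer's side, KLF6 C-E-X and KLF6 C-P-X. Bars are 1 pooled library each, with 95% exact intervals; C-P-X at KLF6 was 0.323%, 0.697% and 0.795%, while C-E-X at KLF6 was 0.386%, 0.521% and 0.952%.

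In 96 h-depl, enhancer contacts with the KLF4 promoter were far below those at 96 h, and those with the KLF6 promoter were less so. KLF4 E-P-X had 149 counts (0.225%) in 96 h-depl, against 399 (0.724%) at 96 h. KLF6 E-P-X had 1100 counts (1.40%) in 96 h-depl, against 1268 (1.89%) at 96 h. The change was -1.69 at KLF4 (-1.98 to -1.42, adjusted p = 1.63e-38, exact test), rank 50 from the highest of 51 loci, and -0.44 at KLF6 (-0.56 to -0.32, adjusted p = 1.76e-13, exact test), rank 7. The median was -0.93, 92.2% of loci were called lower and 0 higher, so on this total the direction was shared by nearly all loci. These ranks, the median and the share called are given for the total within 1 Mb only. The KLF4 change minus the KLF6 change was -1.25 (-1.55 to -0.96). The KLF4 promoter window overlaps its CBS window and that of KLF6 does not, so the values at the 2 genes are not fully alike. At KLF4, counts in the promoter window but not the CBS window were 121 in 96 h-depl against 283 at 96 h.

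The KLF6 value depended on the total, which at every locus held more close contacts in 96 h-depl. The share of distant counts was 16.1% in 96 h-depl against 27.3% at 96 h for KLF4, and 29.6% against 43.8% for KLF6, and it was called lower at 100% of the 51 loci. With distant counts alone as the total, the KLF6 change in E-P-X was 0.14 (adjusted p = 0.0234, exact test), and it was -0.10 with each fragment pair counted once (adjusted p = 0.21, exact test) or with neighbouring fragments left out (adjusted p = 0.091, exact test). The KLF4 change with distant counts as the total was -0.95 (adjusted p = 2.61e-12, exact test), smaller but in the same direction.

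Hubs with a further enhancer were lower in 96 h-depl at KLF4, and not called at KLF6. E-E-P counts were 15 in 96 h-depl against 54 at 96 h for KLF4, a change of -2.08 (-3.05 to -1.27, adjusted p = 9.82e-08, exact test), and 169 against 174 for KLF6, a change of -0.27 (-0.58 to 0.04, adjusted p = 0.0918, exact test), where 88.4% of the 43 loci measured were called lower. The KLF6 value had no settled direction: it ran over the alternatives from -0.48, called lower, to 0.30 with distant counts as the total, where it was not called. Listed enhancers held 2.87% of counts in 96 h-depl against 6.17% at 96 h for KLF4, and 4.80% against 7.78% for KLF6. Listed CTCF sites held 0.765% against 2.00% for KLF4, and 2.10% against 3.63% for KLF6. These shares were not tested with distant counts as the total. Of distant counts, listed enhancers held 1906 of 10700 in 96 h-depl against 3401 of 15016 at 96 h for KLF4. For KLF6 they held 3780 of 23262 against 5229 of 29470. The share of the promoter window among the window and its flanks was 20.8% in 96 h-depl against 26.7% at 96 h for KLF4, a change of -0.46 (-0.75 to -0.19, adjusted p = 0.0018, exact test), and 31.2% against 33.6% for KLF6 (-0.16, -0.27 to -0.04, adjusted p = 0.0167, exact test), with 37.3% of loci called lower. The KLF6 call was lost with flanks out to 50 kb (-0.034).

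Contacts with the CBS itself were lower at both genes and by similar amounts. E-C-X had 173 counts (0.261%) in 96 h-depl against 442 (0.802%) at 96 h for KLF4, and 416 (0.529%) against 959 (1.43%) for KLF6. The changes were -1.63 at KLF4 (-1.89 to -1.37, adjusted p = 3.08e-40, exact test) and -1.44 at KLF6 (-1.61 to -1.28, adjusted p = 7.18e-71, exact test), with a median of -1.10 and 92.2% of loci called lower. With distant counts as the total both were -0.88. At KLF6, then, the same 96 h-depl library had clearly fewer contacts with the CBS while its promoter contacts depended on the total used. E-P-C of KLF6 was 16 in 96 h-depl against 23 at 96 h, which did not pass the test (-0.74, -1.77 to 0.23, adjusted p = 0.134, exact test), where 72.4% of loci were called lower.

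Of distant reporters on the CBS side, a higher share lay beyond the CBS in 96 h-depl at both genes. This share also rises where contacts before the CBS fall. Reporters beyond the CBS were 3178 in 96 h-depl and 1510 at 96 h for KLF4, with totals of 66309 and 55097 counts. For KLF6 they were 4499 and 3673, with totals of 78699 and 67221. Against these totals the rise was far smaller at KLF6 than at KLF4. The share of distant reporters beyond the CBS was 31.5% in 96 h-depl against 12.3% at 96 h for KLF4, a change of 1.72 (1.63 to 1.81) that was rank 1 of 46 loci, and 23.2% against 15.6% for KLF6, a change of 0.71 (0.65 to 0.77, adjusted p = 7.13e-109, exact test). The median was 0.73 and 95.7% of loci were called higher. At KLF4 the 96 h-depl share was also above the 25.8% of 0 h. In E-P-X counts at KLF4, the other reporter lay past the promoter in 20.1% of 96 h-depl counts (14.02% to 27.5%), against 3.51% at 96 h (1.93% to 5.82%).

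The tiles placed both genes' changes. For 96 h-depl over 96 h at KLF4, all 26 tiles between enhancer and CBS were called lower, while beyond the CBS 40 of 63 were higher and 2 lower, and on the side away from the CBS 0 of 99 were higher and 69 lower. At KLF6, 45 of 52 tiles before the CBS were lower and 0 higher. In the first 150 kb past the KLF6 CBS 11 of 15 were still lower and 1 higher, and only farther out did the direction turn, with 27 of 31 higher and 0 lower. Over all loci, 12.3% of tiles were called higher and 36.9% lower. Tile changes are against the total within 1 Mb, whose distant share was lower in 96 h-depl. That share was 16.1% against 27.3% at 96 h for KLF4, and 29.6% against 43.8% for KLF6. Median tile changes were -0.84 before the CBS and -0.80 on the side away from it at KLF4, and -0.65 and -0.40 at KLF6. Tiles were not tested with distant counts as the total, so the part of the lower distant share in these falls was not tested. With each pair counted once, tiles called lower were 51 instead of 97 over the whole KLF4 locus and 65 instead of 109 at KLF6, and with counts divided by 3 tiles called higher were 7 instead of 40 at KLF4 and 17 instead of 34 at KLF6.

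The tile with the KLF4 start and the CBS had 105 counts in 96 h-depl against 361 at 96 h (-2.05), rank 186 of 188 from the highest. The tile with the KLF6 CBS had 299 against 794 (-1.65), rank 197 of 197, whereas the tile of the KLF6 promoter, with 895 against 1066 (-0.49), was rank 114. The largest rises from the KLF6 enhancer lay at the AKR1C genes, 880 to 960 kb away beyond the CBS. At AKR1C2 a tile had 99 counts in 96 h-depl against 4 at 96 h, having had 34 at 0 h and 16 at 24 h, and a tile at AKR1C3, another aldo-keto reductase gene, had 57 against 6, with 41 at 0 h. These tiles hold few counts at 96 h, and their sizes are correspondingly loose (4.24, 3.00 to 6.31, for the AKR1C2 tile).

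By E-P-X changes in 3 comparisons (24 h over 0 h, 96 h over 0 h and 96 h-depl over 96 h), the 2 Kruppel-like factor loci were not near each other. The distance between 2 loci was the root of the summed squared differences of the 3 log2 values. Nearest to KLF6 among 50 other loci were LMO2, at 0.271, which encodes a haematopoietic adaptor of transcription factors, KDM7A, at 0.522, which encodes a histone demethylase, and CREG1, at 0.616. KLF6 was in place 26 in the order from KLF4, at a distance of 1.55. Among 11 other loci of myeloid transcription regulators, E-P-X was called higher at 10 for 24 h over 0 h, against 54.9% of all loci. It was called higher at 11 for 96 h over 0 h, against 68.6% of all loci. In 96 h-depl over 96 h it was called lower at 11, close to the 92.2% of all loci. For 24 h over 0 h, 28 of the 36 loci of the iMac class and 0 of the 15 of the B cell class were called higher. The 11 loci are all of the iMac class, so shares over all loci are a loose comparison for them. This list of 11 was chosen with earlier results of these data known. Its medians in the 3 comparisons were 0.74, 1.35 and -0.999. Set beside these, KLF4 was below the median at 24 h and beyond it in both other comparisons, and KLF6 was above it at 24 h and nearer to 0 in both others. These distances and medians use the total within 1 Mb. The KLF6 value in 96 h-depl over 96 h depended on the total and was 0.14 with distant counts alone.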

How the data were processed

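The authors digested chromatin with NlaIII, ligated neighbouring ends and captured the viewpoints (Tri-C), processed reads with CapCruncher in capture mode (build hg38, per the labels) and merged 3 biological replicates. The deposited unit is a count per pair of reporter fragments, each pair of a read being counted by the authors.

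Raw counts were analysed. Element windows spanned 12 kb, listed elements 4 kb, and 10 kb was excluded around the viewpoint and between reporters. At least 20 counts over both libraries were required. Exact conditional binomial tests were adjusted (Benjamini-Hochberg) over loci, or over tiles of every locus, and called at 0.05. For log2 ratios 0.5 was added to counts. Shares have exact Clopper-Pearson 95% intervals. IFNGR2 and TASL were left out, as in the study, leaving 51 loci. In simulated E-P-X counts for 96 h over 0 h at 51 loci, the test found 100% of loci changed 1.5-fold and 100% of those changed 2-fold, and called 3.23% and 0% of unchanged ones. In tiles it found 25.7% of 1.5-fold changes (9467 tested) and 59.3% of 2-fold changes (9450). The simulated counts were independent binomial draws, the model that the test assumes. They held no spread between replicates and no repeated counts, so they do not give the error rate in these pooled libraries. Named tiles, with 50 counts or more, were among the top 4 rises or top 4 falls of a locus and comparison, or held the promoter or CBS. The loci nearest to KLF4 in pattern are not reported here. The members, lists and tests were chosen with earlier results of these data known. Analyses used Python 3.11.15, NumPy 2.4.6, pandas 2.3.3, SciPy 1.17.1 and matplotlib 3.10.9.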

Additional observations from a re-analysis of the deposited data

How the results depend on the processing

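Of 70 log2 changes at KLF4 and KLF6, recomputed under 467 alternatives in all (window widths, exclusions, totals, repeated counts), 422 kept their direction and their side of the threshold. At KLF4 this held under each alternative run for E-P-X, E-C-X, E-E-P and the share beyond the CBS for 96 h over 0 h and for 96 h-depl over 96 h, with ranges of 1.08 to 2.04 and -1.84 to -0.95 for E-P-X. The cause of the changes listed here was not tested, except that dividing counts by 3 leaves fewer counts and that 20 kb tiles are fewer.

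Directions turned as follows. For 24 h over 0 h at KLF4, E-C-X was 0.087 with 30 kb windows, E-E-P was 1.47 with 7.5 kb windows, 0.25 with 30 kb windows, 0.30 with 5 kb exclusion, 0.56 with each pair counted once and 0.65 with 8 kb listed windows, and the distant share (both reporters over 10 kb from the viewpoint and each other) was -0.066 without neighbouring fragments. For 96 h over 24 h at KLF6, E-E-P was 0.037 with 20 kb exclusion and 0.028 with the whole chromosome as total, E-P-C was -0.89 with 7.5 kb windows, E-P-X was -0.021 with 5 kb exclusion, -0.17 with distant counts as total and -0.028 without neighbouring fragments, and with flanks out to 50 kb the promoter window against flanks was -0.021 from the enhancer and 0.060 from the CBS. For 96 h-depl over 96 h at KLF6, E-P-X was 0.14 with distant counts as total, and E-E-P was 0.30 with that total, 0.030 with each pair counted once and 0.061 without neighbouring fragments.

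Calls were gained at KLF6 as follows. For 24 h over 0 h, E-C-X was 0.23 with 30 kb windows, 0.24 with 5 kb exclusion and 0.28 with each pair counted once, E-P-C was 1.91 with 30 kb windows, and the promoter against 50 kb flanks from the CBS was 0.71 (0.77 for 96 h over 0 h). For 96 h over 24 h, E-P-X was 0.20 with the whole chromosome and C-P-X 0.41 with 30 kb windows. For 96 h-depl over 96 h, E-E-P was -0.34 with 5 kb exclusion, -0.48 with the whole chromosome and -0.48 with 8 kb listed windows, and E-P-C was -0.80 with 30 kb windows.

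Calls were lost as follows. For 24 h over 0 h at KLF4, E-P-X was 0.12 with 30 kb windows and 0.48 with counts divided by 3, the distant share was 0.021 with each pair counted once, and the share beyond the CBS was 0.087 with each pair counted once and 0.14 with counts divided by 3. At KLF6 that share was -0.11 with counts divided by 3, and the distant share without neighbouring fragments was 0.0088 from the enhancer and 0.011 from the CBS. KLF6 E-P-C for 96 h over 0 h was 0.093 with 7.5 kb windows, 1.31 with distant counts as total and 1.76 with counts divided by 3. For 96 h-depl over 96 h at KLF6, E-P-X was -0.10 with each pair counted once and -0.10 without neighbouring fragments, and the promoter against 50 kb flanks was -0.034.

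Counts of called tiles moved most. With 20 kb tiles, counts divided by 3 and each pair counted once, KLF4 tiles higher were 10, 0 and 1 for 24 h over 0 h and 26, 21 and 25 for 96 h over 0 h, and KLF6 tiles higher were 17, 5 and 15 for 24 h over 0 h. With counts divided by 3, tiles lower were 1 at KLF4 and 2 at KLF6 for 24 h over 0 h, and 2 and 8 for 96 h over 0 h, while tiles higher were 35 at KLF6 for 96 h over 0 h, and 7 at KLF4 and 17 at KLF6 for 96 h-depl over 96 h. With 20 kb tiles, KLF6 tiles higher were 29 for 96 h over 0 h and 21 for 96 h-depl over 96 h, and tiles lower in 96 h-depl were 58 at KLF4 and 60 at KLF6. With each pair counted once, tiles lower were 12 at KLF6 for 24 h over 0 h, and 51 at KLF4 and 65 at KLF6 for 96 h-depl over 96 h.

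No paired analysis was possible because each table pools its replicates, and leave-one-out fits were not run for the same reason. Depth limits tiles most, since a tile far from the viewpoint holds few counts.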
